A study of Mus musculus with 6 samples.

Results

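The transcripts of 10 integrin chains of macrophages were measured in bone marrow-derived macrophages (BMDMs) with and without zoledronic acid (ZA), a nitrogen-containing bisphosphonate that blocks farnesyl diphosphate synthase in the mevalonate pathway. The chains were chosen by name from the 35434 rows of the deposited table. They are the alpha chains Itgam, Itgax, Itgal, Itga4, Itga5, Itga6 and Itgav and the beta chains Itgb1, Itgb5 and Itgb7, and all 10 were found and passed the minimum mean level of 1 FPKM, as did 9800 genes of the table. The BMDMs were grown from femoral marrow of C57BL/6 mice in 10 ng/ml M-CSF for 7 days. The Ctrl group (3 libraries) received no ZA, and the ZA group (3 libraries) was taken 12 h after ZA stimulation, at a concentration that the sources used here do not name. The study's methods list its wild-type C57BL/6 animals as females, 6 weeks old, without saying at which age the marrow was taken. Nothing says that the libraries of a group came from separate mice or cultures, so the p-values measure only the spread between these libraries, which may be technical.

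Integrins are receptors built from an alpha and a beta chain that tie a cell to other cells and to the extracellular matrix. In macrophages the alpha chains Itgam (CD11b), Itgax (CD11c) and Itgal (CD11a) pair with the leukocyte beta chain Itgb2 and bind complement fragments and ICAMs. The alpha chains Itga4, Itga5 and Itga6 pair with Itgb1 and bind VCAM1, fibronectin and laminins, and Itgav pairs with Itgb5 and Itgb3 and binds vitronectin and osteopontin. Integrins are switched on from inside the cell when talin and kindlin, recruited with the help of the prenylated small GTPase Rap1, bind the tail of the beta chain.

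Levels are given as FPKM, fragments scaled by gene length and by library total. Levels of different genes can be set side by side only as far as the gene lengths used are right. Library totals lay between 41230600 and 42155808 fragments. Differences are log2 fold changes of log2(FPKM + 1), ZA minus Ctrl, from limma with Benjamini-Hochberg adjustment, and understate the change of genes with a low FPKM. An adjusted p under 0.05 was reached by 0.367% of the 9800 tested genes. At an unadjusted p under 0.05, 7.5% had higher and 4.85% had lower levels after ZA, and in 11.4% and 6.76% every ZA library lay above or below every Ctrl library. The balance of higher and lower genes moved with the scaling, since 735 genes were higher and 475 lower on FPKM as deposited, but 508 higher and 664 lower after centring each library on its median. Where markers of other cells are named below, fewer cells of a type and less RNA per cell cannot be told apart in these bulk libraries.

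The libraries carried the macrophage markers. All 12 macrophage markers had a mean of at least 1 FPKM, with Adgre1, the F4/80 antigen, between 526 and 593 FPKM and Csf1r, the M-CSF receptor, between 767 and 848 FPKM. Summed over the list, Ctrl libraries had 26859.7 to 30860.5 FPKM and ZA libraries 27854 to 31512 FPKM. At an unadjusted p under 0.05, 5 of the 12 were higher in ZA and 0 lower, against 7.5% and 4.85% of all genes tested. Among the 5 were Adgre1 (log2 fold change 0.13, limma, adjusted p = 0.0785) and Csf1r (0.11, adjusted p = 0.0701). Of the other lists, 8 of 14 neutrophil, 4 of 8 megakaryocyte and erythroid and 5 of 8 fibroblast and stroma markers had a mean of at least 1 FPKM. Under 1 FPKM in every library were 8 of 9 T and NK cell, 7 of 8 dendritic cell, 4 of 5 B cell and 5 of 6 mast cell and basophil markers.

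Promoter sequences show where the genes of these chains start. Itgam and Itgax are neighbours on chromosome 7 and encode the most abundant alpha chains of the Itgb2 family, and Itgav and Itgb1 are members that were lower in ZA. RefSeq promoter entries (build GRCm38.p6, 300 bases across the start) were found for 8 of the 10 members, all but Itgal and Itga6. Itgam lies at chr7:128062390-128062689, Itgax at chr7:128129300-128129599, Itgav at chr2:83724147-83724446 and Itgb1 at chr8:128685404-128685703, all on the plus strand. Capitals mark GAGGAA or its reverse complement TTCCTC, the core letters of a PU box, to which the myeloid factor PU.1 can bind.
Itgam: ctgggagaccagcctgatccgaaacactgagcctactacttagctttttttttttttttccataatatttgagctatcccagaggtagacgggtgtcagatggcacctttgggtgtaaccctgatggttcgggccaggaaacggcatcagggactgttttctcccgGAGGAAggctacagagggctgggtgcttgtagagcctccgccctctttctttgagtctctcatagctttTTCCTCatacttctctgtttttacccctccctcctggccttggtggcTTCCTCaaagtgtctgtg
Itgax: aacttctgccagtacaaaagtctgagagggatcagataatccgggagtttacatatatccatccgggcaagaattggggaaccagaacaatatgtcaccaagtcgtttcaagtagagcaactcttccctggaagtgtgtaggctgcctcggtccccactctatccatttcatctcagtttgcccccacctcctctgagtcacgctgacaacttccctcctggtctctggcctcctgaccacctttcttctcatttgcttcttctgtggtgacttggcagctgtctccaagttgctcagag
Itgav: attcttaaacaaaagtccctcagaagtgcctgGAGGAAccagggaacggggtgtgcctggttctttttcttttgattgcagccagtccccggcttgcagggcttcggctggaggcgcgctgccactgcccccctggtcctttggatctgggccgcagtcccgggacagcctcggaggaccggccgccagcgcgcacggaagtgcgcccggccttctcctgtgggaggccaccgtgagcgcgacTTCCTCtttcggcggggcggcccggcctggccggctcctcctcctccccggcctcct
Itgb1: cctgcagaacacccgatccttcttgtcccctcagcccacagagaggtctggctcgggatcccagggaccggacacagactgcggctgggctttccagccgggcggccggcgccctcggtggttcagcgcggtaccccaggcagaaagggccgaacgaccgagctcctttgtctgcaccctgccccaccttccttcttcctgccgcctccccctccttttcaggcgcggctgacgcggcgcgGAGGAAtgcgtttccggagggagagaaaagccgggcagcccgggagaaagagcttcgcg

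The Itgam sequence held the letters 3 times, 1 time forward and 2 times in reverse. Itgav held them 2 times, Itgb1 1 time and Itgax 0 times. In all, 5 of the 8 matched members held them, and so did 28.3% of the 32851 promoter entries of the same length. The GC content was 50.3% for Itgam and 50% for Itgax, against 67.3% for both Itgav and Itgb1 and a median of 52.7% over all entries. A match is a description of letters and not a bound site.

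The 10 chains spanned a wide range in level, and their order was the same in every library apart from the places of Itgav and Itga4. Itgam was the highest, with a median over the 6 libraries of 154 FPKM (range 151 to 159), above 96.3% of the genes tested. Itgb1 (131 to 139 FPKM) and Itgb5 (119 to 125 FPKM) followed, and then, at a distance, Itga6 (42.9 to 46.5 FPKM), Itgax (27.7 to 35.8 FPKM) and Itga5 (20.8 to 24.7 FPKM). Itgav (13.5 to 15.8 FPKM) and Itga4 (14.0 to 15.2 FPKM) were the only neighbours in this order whose ranges over all 6 libraries overlapped. Itgal (7.26 to 11.8 FPKM) lay near the middle of all genes tested, and Itgb7 (1.07 to 1.27 FPKM, 254 to 306 fragments) just passed the minimum level. The summed level of the 10 chains was 552 ± 10.4 FPKM in Ctrl and 548 ± 4.33 FPKM in ZA (mean ± SD, n = 3 each), and the groups overlapped.

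**Figure D1:**
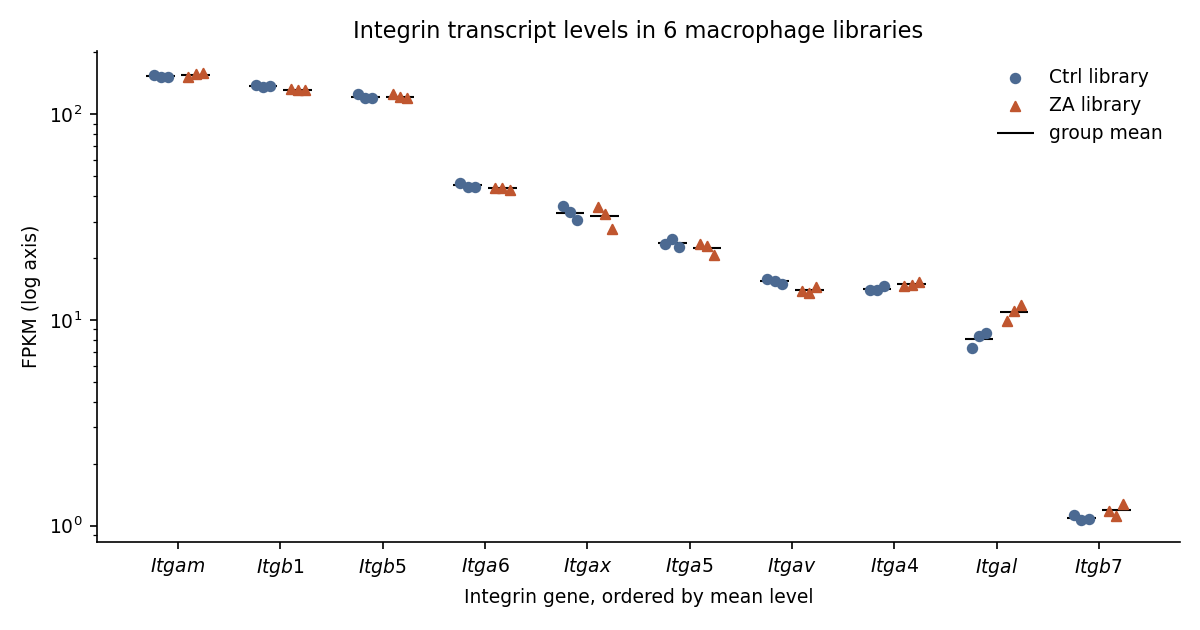
FPKM on a log axis (vertical) of each integrin gene (horizontal, ordered by mean level) in 3 Ctrl libraries (circles) and 3 ZA libraries (triangles), with group means as lines. Levels ran from about 1 FPKM for Itgb7 to 159 FPKM for Itgam in ZA 3, and Itgal is the gene whose groups stand furthest apart.

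After ZA, 0 of the 10 members had an adjusted p under 0.05 by limma on FPKM, and 1 (Itgal) by limma's voom on the recovered fragments. At an unadjusted p under 0.05, 1 was higher (Itgal) and 2 were lower (Itgav and Itgb1), against 7.5% and 4.85% of all genes tested. The groups did not overlap for 5 members, Itgal and Itga4 being higher in ZA and Itga6, Itgav and Itgb1 lower, against 11.4% and 6.76% of all genes in these directions. The median log2 fold change of the 10 was -0.02, beside 0.01 over all genes tested.

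**Figure D2:**
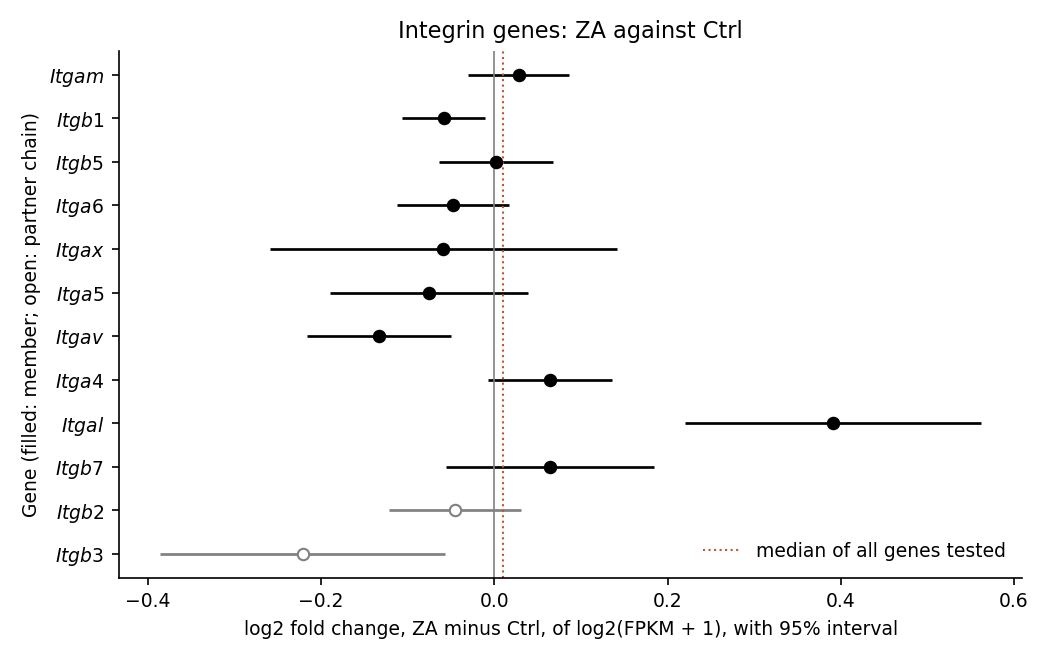
Log2 fold changes, ZA minus Ctrl, of log2(FPKM + 1) (horizontal) with 95% intervals from limma for the 10 members (filled points) and for the partner chains Itgb2 and Itgb3 (open points), and the median of all genes tested (dotted line). The interval of Itgal lies from 0.22 to 0.56, away from those of the other 9 members, which all lie between -0.26 and 0.18.

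Among the alpha chains that pair with Itgb2, Itgal was higher in ZA at an unadjusted p under 0.05, while the groups overlapped for Itgam and Itgax. Itgal, the alpha chain of LFA-1, an ICAM receptor, had 7.26, 8.38 and 8.61 FPKM in Ctrl 1, 2 and 3 and 9.87, 11.04 and 11.8 FPKM in ZA 1, 2 and 3. Every ZA library lay above every Ctrl library. The mean was 8.08 ± 0.722 FPKM in Ctrl and 10.9 ± 0.993 FPKM in ZA (SD, n = 3 each), a ratio of 1.35. The log2 fold change was 0.39 with a standard error of 0.07 (limma, unadjusted p = 0.000712, adjusted p = 0.0884), and it rested on 1640 to 2707 fragments per library. With voom on the recovered fragments the adjusted p was 0.0111, and over all alternatives it lay between 0.0111 and 0.295.

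Itgam, the alpha chain of complement receptor 3, had 156, 151 and 151 FPKM in the Ctrl libraries and 152, 157 and 159 FPKM in the ZA libraries. The groups overlapped, with a log2 fold change of 0.03 and a 95% interval of -0.03 to 0.09. Itgax, the alpha chain of complement receptor 4, had 35.8, 33.4 and 30.6 FPKM in Ctrl and 35.5, 32.7 and 27.7 FPKM in ZA. Its libraries of one group differed from each other by more than the group means did, and the 95% interval of its log2 fold change (-0.06) ran from -0.26 to 0.14. Without ZA 3, the library with the lowest Itgax, the value was 0.04.

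Itgal made up a larger part of these alpha transcripts in ZA. Its share of the summed FPKM of Itgam, Itgax and Itgal came to 3.65%, 4.34% and 4.52% for Ctrl and 5.01%, 5.49% and 5.98% for ZA. The means were 4.17% ± 0.459 and 5.50% ± 0.484 (SD, n = 3 each), and an exact two-sided permutation test gave p = 0.1, the smallest that 3 against 3 libraries allow. This share restates the higher Itgal and adds no separate support. The sum itself was 194 ± 4.29 FPKM in Ctrl and 199 ± 2.05 FPKM in ZA (exact permutation p = 0.3). The beta chain Itgb2, which is no member because 2 readings of its row give whole fragments, had 371, 357 and 346 FPKM in Ctrl and 360, 341 and 339 FPKM in ZA by the reading with a length of 2974 bases. The other reading needs a gene 39 times as long and a symbol that is not in the reference tables. In the first reading its groups overlapped, with a log2 fold change of -0.05 (limma, adjusted p = 0.618).

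Differences in the Itgb1 family were small and not in 1 direction. Itgb1, the shared beta chain of the fibronectin, laminin and VCAM1 receptors, had 139, 135 and 137 FPKM in Ctrl and 132, 131 and 131 FPKM in ZA. All 3 ZA libraries lay below the Ctrl libraries, with a ratio of 0.96, and their SD was 0.368 FPKM against 2.01 FPKM in Ctrl. The log2 fold change was -0.06 with a 95% interval of -0.11 to -0.01 (limma, unadjusted p = 0.0232, adjusted p = 0.319). Without Ctrl 1, Ctrl 3 or ZA 2 the unadjusted p was 0.0798, 0.0583 or 0.0542.

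Itga4, which forms VLA-4 with Itgb1, had 14.0, 14.0 and 14.6 FPKM in Ctrl and 14.7, 14.8 and 15.2 FPKM in ZA. The groups lay next to each other without overlap (ratio 1.05), but overlapped after centring each library on its median. The log2 fold change of 0.06 had a 95% interval of -0.01 to 0.14 (limma, adjusted p = 0.453). Itga6, the laminin receptor chain, had 46.5, 44.5 and 44.3 FPKM in Ctrl and 44.0, 44.0 and 42.9 FPKM in ZA, likewise without overlap but in the other direction. Its log2 fold change was -0.05 with a 95% interval of -0.11 to 0.02 (limma, adjusted p = 0.533). Itga5, the fibronectin receptor chain, had 23.5, 24.7 and 22.6 FPKM in Ctrl and 23.5, 22.9 and 20.8 FPKM in ZA, and its groups overlapped (log2 fold change -0.08, 95% interval -0.19 to 0.04).

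Itgb7, which pairs with Itga4 in a receptor for the gut addressin MAdCAM1, had 1.13, 1.07 and 1.08 FPKM in Ctrl and 1.18, 1.12 and 1.27 FPKM in ZA, and its groups overlapped. The log2 fold change was 0.06 with a 95% interval of -0.06 to 0.18 on 254 to 306 fragments per library. In level, Itga4 was 13.0 ± 0.547 times Itgb7 in Ctrl and 12.6 ± 0.659 times in ZA (SD, n = 3 each).

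**Figure D3:**
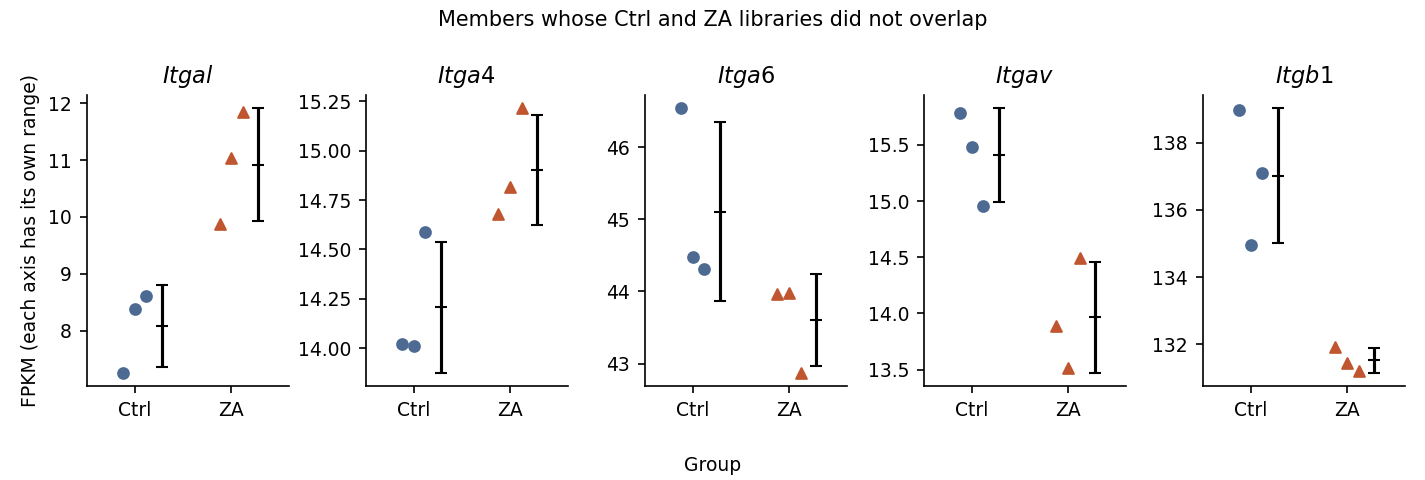
FPKM (vertical, each panel with its own range that does not start at 0) of the 5 members whose Ctrl (circles) and ZA (triangles) libraries did not overlap, with the mean and SD of each group beside the points. The gap between the groups is wide for Itgal (8.61 against 9.87 FPKM) and narrow for Itga4 (14.6 against 14.7 FPKM).

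The alpha chain of the vitronectin receptors, Itgav, was lower in ZA at an unadjusted p under 0.05. It had 15.8, 15.5 and 15.0 FPKM in Ctrl and 13.9, 13.5 and 14.5 FPKM in ZA, so that every ZA library lay below every Ctrl library. The mean was 15.4 ± 0.419 FPKM in Ctrl and 14.0 ± 0.494 FPKM in ZA (SD, n = 3 each), a ratio of 0.907. The log2 fold change was -0.13 with a standard error of 0.04 (limma, unadjusted p = 0.00609, adjusted p = 0.203), and its adjusted p over the alternatives lay between 0.0762 and 0.44.

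Of its beta partners, Itgb5 differed by less than the spread between libraries and Itgb3 was lower. Itgb5 had 125, 120 and 120 FPKM in Ctrl and 125, 121 and 119 FPKM in ZA, and its log2 fold change of 0.00 had a 95% interval of -0.06 to 0.07 and turned negative, -0.01, with the libraries centred or quantile normalized. Itgb3, the beta chain of osteoclasts and platelets as well, had 14.1, 12.6 and 12.3 FPKM in Ctrl and 12.2, 10.8 and 10.04 FPKM in ZA, with a log2 fold change of -0.22 (standard error 0.07, limma, unadjusted p = 0.0145, adjusted p = 0.269). Itga2b, which pairs with Itgb3 in platelets, had 9.29 to 12.8 FPKM in Ctrl and 7.99 to 10.9 FPKM in ZA, overlapping (log2 fold change -0.23, limma, adjusted p = 0.484). The summed level of 8 megakaryocyte and erythroid markers was 127 to 148 FPKM in Ctrl and 102 to 126 FPKM in ZA. Of the 4 that were tested, 2 (Pf4 and Ppbp) were lower at an unadjusted p under 0.05, against 4.85% of all genes tested. Pf4 and Ppbp had Ctrl means of 59.5 and 71.3 FPKM, so that most of the sum came from them. Gp9 and Gp1bb did not pass that threshold (limma, unadjusted p = 0.174 and 0.152). The other 4 of the 8 were under 1 FPKM in every library. The part of such cells in the Itgb3 and Itga2b values was not tested.

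The ratio of Itgav to Itga4 in FPKM was lower in ZA. Itgav was 1.13, 1.11 and 1.03 times Itga4 in the Ctrl libraries and 0.946, 0.912 and 0.953 times in the ZA libraries. Which side of 1 the ratio falls on depends on the gene lengths used, 7000 bases for Itgav and 13214 for Itga4. In fragments, Itgav (3935 to 4604 per library) lay below Itga4 (7696 to 8475) throughout. Itgb5 was 9.39 ± 0.44 times Itgb3 in Ctrl and 11.1 ± 0.804 times in ZA (SD, n = 3 each). For both ratios the groups did not overlap, and the exact permutation p was 0.1, the smallest possible. Itgav alone and Itga4 alone already separated the groups, in opposite directions. Their ratio therefore had to separate them too, and its p adds no support. The ratio of Itgb5 to Itgb3 likewise restates the lower Itgb3 beside an Itgb5 that differed little. Itgb1 was 1.39 ± 0.0264 times the sum of Itga4, Itga5, Itga6 and Itgav in Ctrl and 1.39 ± 0.0166 times in ZA (exact permutation p = 0.7). That sum was 98.3 ± 1.69 FPKM in Ctrl and 94.9 ± 1.36 FPKM in ZA, without overlap (exact permutation p = 0.1). It holds Itga6 and Itgav, which were each lower without overlap, so it adds no separate support.

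**Figure D4:**
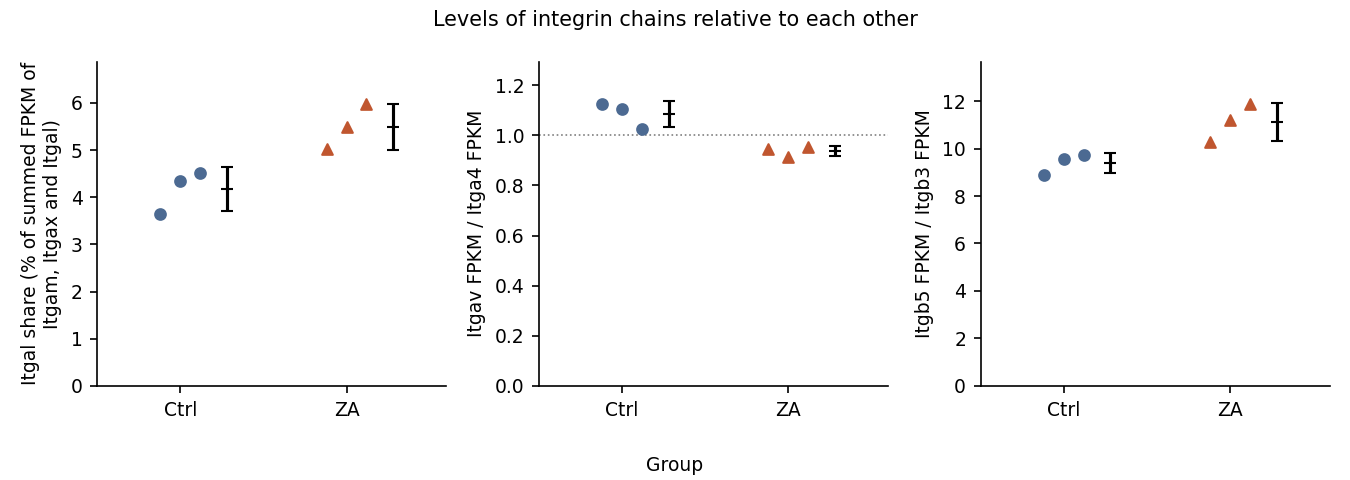
From left to right, the share of Itgal in the summed FPKM of Itgam, Itgax and Itgal (%), the ratio of Itgav to Itga4 and the ratio of Itgb5 to Itgb3 (vertical axes from 0) in Ctrl (circles) and ZA (triangles) libraries, with mean and SD. The ratio of Itgav to Itga4 in FPKM lies above 1 in all 3 Ctrl libraries and below 1 in all 3 ZA libraries. The side of 1 depends on the gene lengths used.

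Fibroblast and stromal cells also carry Itgav, Itgb1 and Itga5. The summed level of 8 fibroblast and stroma markers was 35.8, 27.6 and 20.03 FPKM in Ctrl and 25.4, 21.9 and 17.8 FPKM in ZA, so that these groups overlapped. The 5 that were tested all had a negative log2 fold change. Of these, 2 (Dcn and Cxcl12) were lower at an unadjusted p under 0.05, against 4.85% of all genes tested. Col1a1, which did not pass that threshold, was between 2.26 and 5.37 FPKM. Pdgfra, which was under the minimum mean level and not tested, was between 0.374 and 1.12 FPKM. The 14 neutrophil markers were summed at 71.5 to 88.2 FPKM in Ctrl and 67.3 to 73.9 FPKM in ZA. Of the 8 tested, 4 were lower at an unadjusted p under 0.05, against 4.85% of all genes tested. Among them were the granule genes Elane and Mpo, which also mark immature myeloid cells. The part of these cells in the values of Itgav and Itgb1 was not tested.

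Of 18 other integrin chains, 14 were under the minimum level, and the remaining Itgb2, Itgb3, Itga2b and Itga9 all had a negative log2 fold change (median -0.13). At an unadjusted p under 0.05, 1 of the 4 was lower (Itgb3) and 0 were higher, against 4.85% and 7.5% of all genes tested. An adjusted p under 0.05 was reached by 0, with limma or voom. The unadjusted count was 0 without Ctrl 1 or without ZA 3, 2 without Ctrl 3 and 3 without ZA 1.

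Most tested transcripts of proteins that switch integrins on or tie their tails to actin had an unadjusted p of 0.05 or more. Vcl, Flna and Tns1 (the last named after its value was seen) were lower at an unadjusted p under 0.05. Of 26 activators and tail adaptors, 21 were tested, with 1 higher and 3 lower at an unadjusted p under 0.05. These were 19% of those tested, against 12.3% of all genes tested. At an adjusted p under 0.05 there were 0 (2 with voom), and the median log2 fold change was -0.03. Vcl (vinculin), which links talin to actin, had 13.4, 12.8 and 11.9 FPKM in Ctrl and 10.9, 10.2 and 9.68 FPKM in ZA (log2 fold change -0.28, limma, adjusted p = 0.0854). Flna (filamin A), an actin crosslinker that binds beta tails, had 105, 103 and 102 FPKM in Ctrl and 93.6, 92.1 and 95.7 FPKM in ZA (log2 fold change -0.14, limma, adjusted p = 0.0699). For both genes the groups did not overlap, and the adjusted p with voom was 0.0114 and 0.00769. Rasgrp4, an exchange factor for Ras, had 2.43 to 2.60 FPKM in Ctrl and 2.81 to 2.88 FPKM in ZA (log2 fold change 0.14, limma, adjusted p = 0.258).

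The genes of talin, kindlin 3 and Rap1 did not pass the test. Tln1 lay between 98.6 and 102 FPKM and Rap1b between 267 and 281 FPKM, with log2 fold changes of -0.01 and -0.02 and overlapping groups. Fermt3 (kindlin 3) had 140, 141 and 140 FPKM in Ctrl and 138, 137 and 138 FPKM in ZA, without overlap, with a log2 fold change of -0.03 (limma, adjusted p = 0.586). These genes were chosen after their values were seen, as the named steps of integrin activation.

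Among 44 genes of adhesion signalling, 40 were tested, with 5 higher and 2 lower at an unadjusted p under 0.05. Together they made up 17.5% of those tested, not far from the 12.3% of all genes tested. At an adjusted p under 0.05 there were 0 (2 with voom), and the median log2 fold change was 0.00. Fyb, an adaptor that carries signals to integrins, had 91.9 to 96.1 FPKM in Ctrl and 100 to 106 FPKM in ZA (log2 fold change 0.12, limma, adjusted p = 0.15). Parvg, a parvin that joins integrin-linked kinase to actin, had 6.81 to 8.05 FPKM in Ctrl and 5.94 to 6.35 FPKM in ZA (-0.23, adjusted p = 0.169). Also past the unadjusted threshold, and named after their values were seen, were Pxn, Arhgef6 and Plcg2 (higher) and Zyx (lower).

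Ligands and counter-receptors of these integrins that the cultures themselves transcribed included the largest differences of the lists. Of 42 genes, 22 were tested, with 2 higher and 7 lower at an unadjusted p under 0.05. These were 40.9% of those tested, against 12.3% of all genes tested, and the median log2 fold change was -0.18. The 1 gene with an adjusted p under 0.05 (2 genes with voom) was C3, whose cleaved form is bound by Itgam and Itgax. It had 22.7, 21.7 and 21.1 FPKM in Ctrl and 26.9, 30.2 and 33.2 FPKM in ZA (log2 fold change 0.44, limma, adjusted p = 0.049), and without Ctrl 1, Ctrl 2, Ctrl 3, ZA 2 or ZA 3 the adjusted p was between 0.122 and 0.2. It stayed under 0.05 in 6 of the 15 alternatives.

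Vcam1, the counter-receptor of the Itga4 and Itgb1 pair, had 6.62, 5.59 and 5.23 FPKM in Ctrl and 4.19, 4.49 and 4.35 FPKM in ZA, without overlap (log2 fold change -0.35, limma, adjusted p = 0.103, and 0.0341 with voom). F11r (JAM-A), which Itgal binds, had 1.27 to 1.32 FPKM in Ctrl and 0.911 to 1.06 FPKM in ZA (log2 fold change -0.21, limma, adjusted p = 0.174). Also past the unadjusted threshold, and named after their values were seen, were Spp1 (osteopontin), Thbs1, Mfge8, Col4a1 and Col4a2 (lower) and Adam17 (higher). The list also holds Col1a1, Col1a2 and Col3a1, which are fibroblast and stroma markers and did not pass that threshold. The part of such cells in this list, with the summed levels given for them, was not tested. Its count past the unadjusted threshold was 9 in all libraries but 4 without Ctrl 1, 4 without Ctrl 2, 14 without Ctrl 3, 5 without ZA 2 and 4 without ZA 3.

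Of 18 membrane partners of integrins, 17 were tested, with 1 higher and 5 lower at an unadjusted p under 0.05. Together they made up 35.3% of those tested, against 12.3% of all genes tested. At an adjusted p under 0.05 there were 0 (0 with voom), and the median log2 fold change was -0.03. Cd36, a scavenger receptor that works with integrins in the uptake of dying cells, had 167, 167 and 174 FPKM in Ctrl and 161, 156 and 148 FPKM in ZA (log2 fold change -0.13, limma, adjusted p = 0.194). Cd63, a tetraspanin, had 707 to 718 FPKM in Ctrl and 670 to 695 FPKM in ZA (-0.07, adjusted p = 0.255). Plaur, the urokinase receptor, had 45.6 to 49.5 FPKM in Ctrl and 42.1 to 44.7 FPKM in ZA (-0.12, adjusted p = 0.259). Without Ctrl 1 the count of this list was 3 in place of 6.

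**Figure D5:**
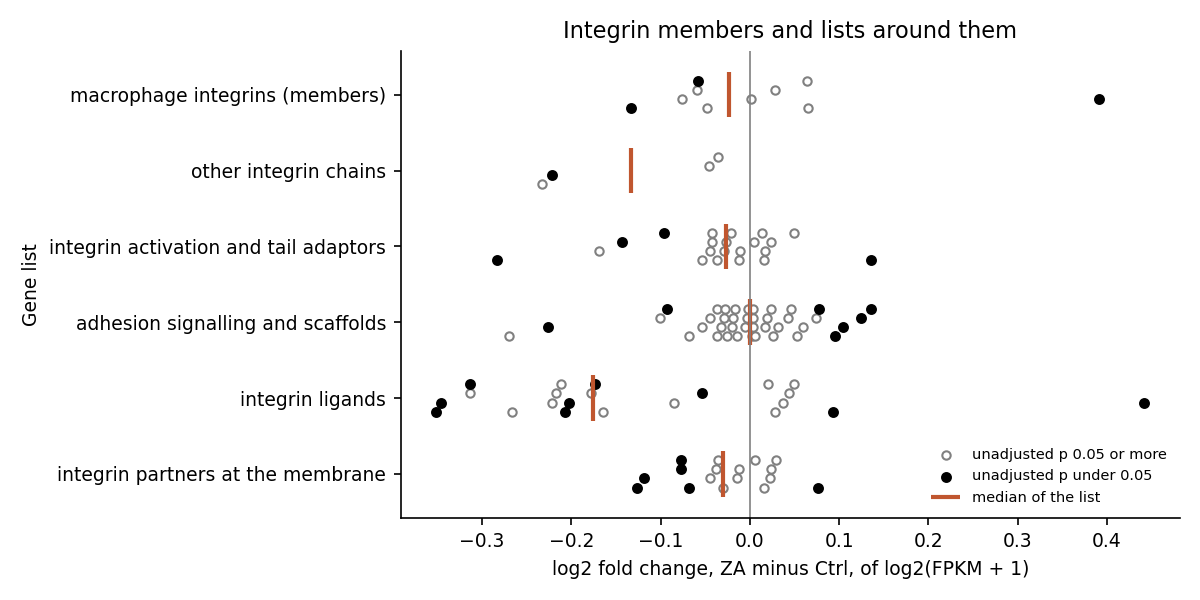
Log2 fold changes, ZA minus Ctrl, of log2(FPKM + 1) (horizontal) of the tested genes in the 10 members and 5 lists around them (vertical), filled where the unadjusted p was under 0.05, with the median of each list as a bar. Itgal (0.39) and C3 (0.44) lie furthest to the right, and the ligand list has the lowest median (-0.18).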

How the data were processed

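Total RNA of BMDMs was sequenced as paired-end reads on an Illumina platform. The labels name a VAHTS and a SMARTER library kit, and the submitters' processing notes name mm9. The aligner, counter and annotation are not given in the sources used here. The authors deposited FPKM values for each gene and library, but only 11 of 35434 rows kept their separators.

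The other rows were split where number formats allowed a single reading (25396 rows) or where all values of a reading came from whole fragments at 1 gene length and the library totals (10030 rows, margin of at least 3 powers of 10 over the next reading). The 8 rows left out gave no reading that met these conditions. Of 2000 simulated rows, 2000 were restored exactly. These were made from rows already restored, with the same lengths, totals and number formats, so they cannot show errors in those. The 11 rows with separators were all restored identically after the separators were removed. The restored rows hold 99.7% of each library's fragments.

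For testing, FPKM values plus a pseudocount of 1 were put on the log2 scale and fitted by limma 3.58.1 under R 4.3.3 (eBayes with trend, two-sided), with Benjamini-Hochberg adjustment over 9800 genes whose mean was 1 FPKM or more. On simulated data 78% of 200 genes changed 1.2-fold and 100% of those changed 1.5-fold were called, with 10 and 11 unchanged genes called beside them. The folds were of FPKM + 1, so the FPKM of genes with a low level changed by more. The simulated noise was independent and normal, with limma's moderated spread of each gene. The shares found may therefore be too high for the real libraries, and a gene that is not called is not shown to be unchanged. Ratios were tested by exact permutation with SciPy. Library pairs within a group had a chi-square per gene of 3.52 to 9.73, so none was a duplicate. Alternatives were another pseudocount, other filters and scalings, no trend, a replicate block, each library left out, a margin of 6 and voom on whole fragments. Named genes are all members and the up to 3 genes per list that had the largest absolute moderated statistics, plus Itgb2 and Itgb3, and 1 of them is not reported here. The members and lists were chosen with earlier results of these data known.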

Additional observations from a re-analysis of the deposited data

How the results depend on the processing

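Over 15 alternatives to the comparison of ZA with Ctrl, Itgal kept a positive log2 fold change (0.32 to 0.46) and Itgav a negative one (-0.16 to -0.11), each with an unadjusted p under 0.05 in all 15, while Itgb1 passed it in 11. The number of members with an adjusted p under 0.05 was 1 with voom and 1 with the replicate block (Itgal, adjusted p = 0.012), and 0 whichever library was left out. Members past an unadjusted p under 0.05 were 2 to 4 over all alternatives. Members with groups that do not overlap were 4 after centring, without Itga4, and 5 to 7 with a library left out. Itgb5, near 0, turned negative with centring (-0.0106), quantile normalization (-0.0090), without Ctrl 2 (-0.0076), Ctrl 3 (-0.0102) or ZA 1 (-0.0192), and Itgax turned positive without ZA 3 (0.0377). With a library left out, Itgb5 ranged from -0.0192 to 0.0227 and Itgax from -0.1361 to 0.0377. The other integrin chains past the unadjusted threshold were 3 with the replicate block, 2 with voom and 0 to 3 with a library left out. The ligands were 16 with the block and 4 to 14 with a library left out, and the membrane partners 3 to 6. The cause of these changes was not tested. Over all genes, an adjusted p under 0.05 was reached by 36, by 132 with voom, by 78 with the block, by 1 without a trend or with all genes above 0, and by 0 to 25 with a library left out.

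Same-numbered libraries had correlations of 0.284, 0.0393 and 0.28 between their deviations from the group means. The labels do not say that same-numbered libraries belong together, so the main test was left unpaired. A call under the block is given as a hint only, and an effect shared by same-numbered libraries was not tested. Raising the reading margin to 6 left the number of genes tested at 9800. Itgb7 rests on the fewest fragments of the members, 254 to 306 per library, and the part of depth in its spread was not tested.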
